A study of Mus musculus with 65 samples.

Results

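Tnc, Hopx and Ptn are 3 genes used as markers of late radial glia, and they are described here across 65 single cells of the embryonic mouse cortex, as 3 of the 10407 genes in the deposited tables. They were taken by name, and the names were chosen by their read levels in these same cells, with earlier results for the 3 groups known, so every level and ratio of them below is a description with no test. The cells came from CD1 mice and fall into 3 groups. The first holds 20 wild-type FlashTag cells of embryonic day 12 (E12), the next 26 wild-type FlashTag cells of embryonic day 15 (E15), and the last 19 E15 progenitors that had been put into the brain of an E12 host, called transplanted cells here. FlashTag is a fluorescent dye that marks progenitors dividing at the ventricle, and Patch-seq draws the content of a cell into a pipette for sequencing. The comparison asks which genes of an older progenitor change once it lies in a younger brain. Since no label ties a cell to an animal or host, a group is treated as 1 sample, and cells give neither p-values nor standard errors here. How long the transplanted cells stayed in the host is not given in the sources used here.

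Radial glia are the progenitors that line the ventricle of the developing cortex and give rise first to neurons and later to glia, and they change the genes they express as development goes on. Tnc encodes tenascin C, a large secreted matrix protein of progenitor zones that binds integrins and the chondroitin sulfate proteoglycans around radial glia. Ptn encodes pleiotrophin, a secreted heparin-binding growth factor whose best-known receptor, the phosphatase Ptprz1, also binds tenascin C. Hopx encodes a small homeodomain protein that does not bind DNA itself and works through partners such as serum response factor and histone deacetylases. All 3 genes are widely used as markers of outer or late radial glia. In the added reads of all cells here, only Tnc was higher at E15 than at E12. The order of Hopx and Ptn turned with the libraries left out, as given below.

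On GRCm38, the assembly called mm10 in the submitters' processing notes, the 3 genes lie on the minus strand. In GENCODE vM21, Tnc (ENSMUSG00000028364.15) spans chr4:63959785-64047015, with 26 exons in its longest transcript, Hopx (ENSMUSG00000059325.14) chr5:77086988-77115121 with 3 exons, and Ptn (ENSMUSG00000029838.11) chr6:36714929-36810220 with 5 exons. Tnc overlaps 8030451A03Rik and Hopx overlaps its antisense gene Hopxos, both on the opposite strand. Whether the counting used strand is not given in the sources used here, so reads of these overlapping pairs cannot be told apart. Ptn overlaps no annotated gene.

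The sequences just upstream of the 3 genes are shown because all 3 levels were lower in transplanted than in E15 cells. They are taken from RefSeq on GRCm38.p6 and run 5′ to 3′ on the gene's strand. Those of Tnc and Ptn end at the base before the outermost annotated start. That of Hopx ends at chr5:77115124, slightly short of the start at 77115121. The windows are chr4:64047016-64047265 for Tnc, chr5:77115124-77115373 for Hopx and chr6:36810221-36810429 for Ptn, and capitals mark matches to the motifs listed after them.
Tnc: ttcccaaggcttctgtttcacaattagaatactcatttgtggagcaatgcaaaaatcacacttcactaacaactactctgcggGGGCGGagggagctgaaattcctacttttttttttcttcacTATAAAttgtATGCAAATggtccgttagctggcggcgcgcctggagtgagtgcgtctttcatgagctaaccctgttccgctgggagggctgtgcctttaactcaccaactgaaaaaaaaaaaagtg
Hopx: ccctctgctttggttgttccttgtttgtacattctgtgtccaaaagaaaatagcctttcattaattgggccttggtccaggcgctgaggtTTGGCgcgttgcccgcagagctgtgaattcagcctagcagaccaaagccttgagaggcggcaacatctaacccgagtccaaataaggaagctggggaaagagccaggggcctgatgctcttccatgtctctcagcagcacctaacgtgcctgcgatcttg
Ptn: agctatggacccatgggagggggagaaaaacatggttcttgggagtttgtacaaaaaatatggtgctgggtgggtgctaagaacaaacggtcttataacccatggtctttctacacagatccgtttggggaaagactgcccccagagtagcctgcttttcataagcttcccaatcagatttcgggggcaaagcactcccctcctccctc
The Tnc window held a GC box, GGGCGG, from base 84 of the window. It also held a TATA box with the letters TATAAA from base 125. An octamer site, ATGCAAAT, began at base 135, and these matches do not overlap. The Hopx window held TTGGC, the core of an NFI site, at base 91, and the Ptn window of 209 bases held none of the motifs searched. Of 32851 mouse promoter windows of 250 bases, 1.60% held the octamer, 12.4% the TATA box, 32.7% the GC box and 41.5% TTGGC. The other motifs searched, all on both strands, were GTGGGAA (RBPJ), AACAAT (Sox), CAGCTG (E-box), TTCNNNGAA (STAT) and TGANTCA (AP-1), which 5.42%, 9.42%, 13%, 7.02% and 6.75% of windows held. These motifs were chosen after the sequences had been seen. A match is only a match of letters, and no motif searched was shared by the 3 windows.

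Levels are given in CPM, reads of the gene per 1000000 reads over the 10407 genes, either for the summed reads of a group or per cell. Depth ran from 10928 to 1635767 reads at E12 (median 148824), from 11449 to 4560871 at E15 (median 998630) and from 22358 to 3622411 among transplanted cells (median 166134). Ranges in parentheses after a level, share or ratio are exact 95% limits (Poisson, Clopper-Pearson or conditional binomial), and they cover the error of counting reads alone, as copies made by PCR are not independent molecules.

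A set of 16 libraries had reads of more than 8000 genes, 11 of E15 and 5 of transplanted cells, with 0 at E12. The limit does not mark a clear gap. E15 replicate 13 with 7749 genes and transplanted replicate 19 with 7827 lie just below it, and transplanted replicate 14 with 8193 just above. Of 17 listed apical progenitor genes 16 are in the tables, all 16 with a read in each group, with per-cell sums of 1054 to 18437 CPM at E12, 1008 to 44511 at E15 and 1630 to 23845 in transplanted cells. In the 16 many-gene libraries the median per-cell sum of these genes was 2899 CPM, against 22852 in the other 15 E15 cells and 8855 in the other 14 transplanted cells. Their median sums were 5122 CPM for 13 neuronal genes, 3482 CPM for 13 genes of ventral telencephalon and interneurons and 2310 CPM for 13 genes of microglia and macrophages. Over the 16 libraries these sums ran from 3515 to 7241, from 110 to 5553 and from 3.03 to 8884 CPM. Transplanted replicates 4, 15 and 17 had only 3.03, 27.6 and 7.10 CPM of microglia and macrophage genes. In the other E15 cells the medians of these lists were 1379, 590 and 119 CPM, and in the other transplanted cells 1505, 662 and 374 CPM. Erythroid genes, 5 of 7 in the tables, also moved with the group, at medians per cell of 2946 CPM at E12 (322 to 21298), 116 at E15 (5.07 to 57643) and 4698 in transplanted cells (25.2 to 64865), with none of the 5 at 0 in any group. In 23 of the 65 cells, 2 of E12, 13 of E15 and 8 transplanted, the sum of neuronal, ventral or microglia genes was above that of the apical genes, so their markers go against the labelled progenitors. Of these 23 cells 15 are many-gene libraries. Transplanted replicate 8 had 21203 CPM of microglia and macrophage genes against 4612 CPM of apical genes, and E12 replicate 11 had 7473 CPM of neuronal genes against 1054 CPM. The part of these libraries, cells and genes in the results was not tested. Levels of Tnc, Hopx and Ptn are also given without the many-gene libraries, and those of other genes where that moved the ratio of the groups compared or a level by more than 1.5 times. In that set transplanted replicate 19 held 55.7% of the transplanted reads, and the deepest E15 cell 26.7% of the E15 reads. Added transplanted levels without the many-gene libraries therefore lean on replicate 19.

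Without the 23 cells Tnc stood at 12.6 CPM at E12, 231 at E15 and 0.283 in transplanted cells. Hopx then stood at 124, 196.5 and 9.92 CPM, and Ptn at 2223, 3536 and 913 CPM, with 18, 13 and 11 cells left. The order of the 3 groups in these values was that found without the many-gene libraries. That set of cells was chosen after the data had been seen.

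Tnc was read in many E15 cells and in almost no transplanted cell. In E12 cells it ran from 0 to 85.3 CPM with a median of 0, in E15 cells from 0 to 1073 CPM with a median of 2.29, and in transplanted cells from 0 to 6.02 CPM with a median of 0. A read was found in 3 of 20 E12 cells (15%, 3.21 to 37.9), 14 of 26 E15 cells (53.8%, 33.4 to 73.4) and 2 of 19 transplanted cells (10.5%, 1.30 to 33.1). The ranges of the 3 groups overlap at 0, and every cell at 100 CPM or more, 9 of them, was an E15 cell.

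These 9 E15 cells, replicates 2, 8, 9, 12, 13, 17, 18, 19 and 26, lay in 5 of the 8 pools that the labels name A to H without saying what a pool is. The reads of a group added up gave 11.3 CPM at E12 (8.56 to 14.7), 61.8 at E15 (59.3 to 64.3) and 0.236 in transplanted cells (0.0486 to 0.690). Tnc at E12 was nearly all from 1 cell: E12 replicate 17 held 53 of the 56 reads, and the other 19 cells came to 0.694 CPM. At E15, replicate 13 held 969 of 2315 reads (41.9%), and the level was 39.0 CPM without it.

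The transplanted level rested on 3 reads, 2 in replicate 15 and 1 in replicate 1. E15 cells were 262 times above transplanted cells (89.5 to 1271), a log2 ratio of transplanted over E15 of -5.67, and the log2 ratio of E15 over E12 was 2.35. The latter was 5.21 without E12 replicate 17, and that of transplanted over E12 was -3.32, or -0.46 without that cell. Without the many-gene libraries Tnc stood at 206 CPM in 9 of 15 E15 cells with a read and at 0.216 CPM in transplanted cells, with 1 read in 14 cells. The E15 cells were thus higher than transplanted cells with these libraries and without them.

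A count of 0 in a shallow library limits Tnc weakly. In the 17 transplanted cells at 0, the 3 reads that a count of 0 allows were worth 1.16 to 134 CPM (median 25.8), below the 206 CPM of the E15 cells without many-gene libraries in all 17, and below 61.8 CPM in 13. With each cell thinned to 28614 reads, which leaves 17, 24 and 17 cells, a Tnc read was found in 2 E12 cells, 10 E15 cells and 0 of 17 transplanted cells (at most 19.5%). So at equal depth, too, the share of cells with a Tnc read was highest at E15.

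Hopx was read in many E12 and E15 cells and in few transplanted cells. It ran from 0 to 538 CPM in E12 cells (median 0), from 0 to 580 CPM in E15 cells (median 7.71) and from 0 to 105.5 CPM in transplanted cells (median 0). A read was found in 9 of 20 E12 cells (45.0%, 23.1 to 68.5), 15 of 26 E15 cells (57.7%, 36.9 to 76.6) and 4 of 19 transplanted cells (21.1%, 6.05 to 45.6). The E12 and E15 ranges cover nearly the same span, and 6 cells in each of them reached 100 CPM, against 1 transplanted cell.

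Added up, Hopx stood at 112 CPM at E12 (103 to 122), 56.3 at E15 (53.9 to 58.7) and 5.35 in transplanted cells (4.15 to 6.78). The E15 level was 10.5 times that of transplanted cells (8.27 to 13.6), a log2 ratio of transplanted over E15 of -3.17. The largest holder at E12 was replicate 5 with 212 of 553 reads, at E15 replicate 2 with 632 of 2110 reads. In transplanted cells replicate 2 held 34 of 68 reads, and without it the level was 2.74 CPM.

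The order of E12 and E15 in Hopx turned with the many-gene libraries. The log2 ratio of E15 over E12 was -0.98 over all cells and 0.70 without those libraries, where Hopx stood at 183 CPM in E15 cells with 11 of 15 cells holding a read. Transplanted cells were then at 7.54 CPM, with 34 of the 35 reads in replicate 2 and 0.232 CPM without it. Transplanted cells were lowest either way, at log2 ratios to E12 of -4.15 over all cells and -3.72 without the many-gene libraries. Thinned to 28614 reads, 8 of 17 E12, 11 of 24 E15 and 2 of 17 transplanted cells had a Hopx read.

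Ptn was read in nearly every cell, so its groups differ in level rather than in presence. It ran from 2.44 to 7859 CPM in E12 cells (median 1690), from 73.7 to 10315 CPM in E15 cells (median 690.5) and from 0 to 3188 CPM in transplanted cells (median 282). All 20 E12 and all 26 E15 cells had a read, as did 18 of 19 transplanted cells. The ranges overlap over most of their length, and the transplanted cells lacked the levels above 3188 CPM that 3 E12 and 5 E15 cells reached.

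Added up, Ptn stood at 2006 CPM at E12 (1967 to 2046), 1050.5 at E15 (1040 to 1061) and 437 in transplanted cells (426 to 449). E15 cells were 2.40 times above transplanted cells (2.33 to 2.47), a log2 ratio of transplanted over E15 of -1.26. This ratio leaned on E15 replicate 13, which held 18789 of 39371 reads (47.7%): without it E15 stood at 596 CPM and the log2 ratio was -0.44. The log2 ratio of transplanted over E12 was -2.19.

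As with Hopx, the order of E12 and E15 in Ptn turned with the many-gene libraries, from a log2 ratio of E15 over E12 of -0.93 over all cells to 0.66 without them. Ptn then stood at 3159 CPM at E15 and 728 CPM in transplanted cells, with E12 at 2006 CPM since it holds none of those libraries. At this limit of 8000 genes the turn rested on E15 replicate 13, which then held 54.0% of the E15 reads of Ptn. Without it as well E15 stood at 1985 CPM, and the log2 ratio of E15 over E12 was -0.02. A limit of 7000 genes also drops replicate 13. There E15 stood at 2754 CPM, with a log2 ratio of E15 over E12 of 0.46. With the limit at 8000 genes the medians per cell were not turned, at 1690 CPM at E12 and 1561 in the 15 E15 cells. With it at 7000 genes they were, at 2083 CPM in the 12 E15 cells left. The 11 many-gene E15 libraries lay between 73.7 and 720 CPM of Ptn, in the lower range of their group. Without these libraries the added reads of Tnc and Hopx also put E15 highest, then E12, then transplanted cells. For Ptn the order of E15 and E12 without replicate 13 depended on the limit, 8000 or 7000 genes. The per-cell ranges of E15 and E12 cells, and of E12 and transplanted cells, overlap for each of the 3 genes.

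**Figure D1:**
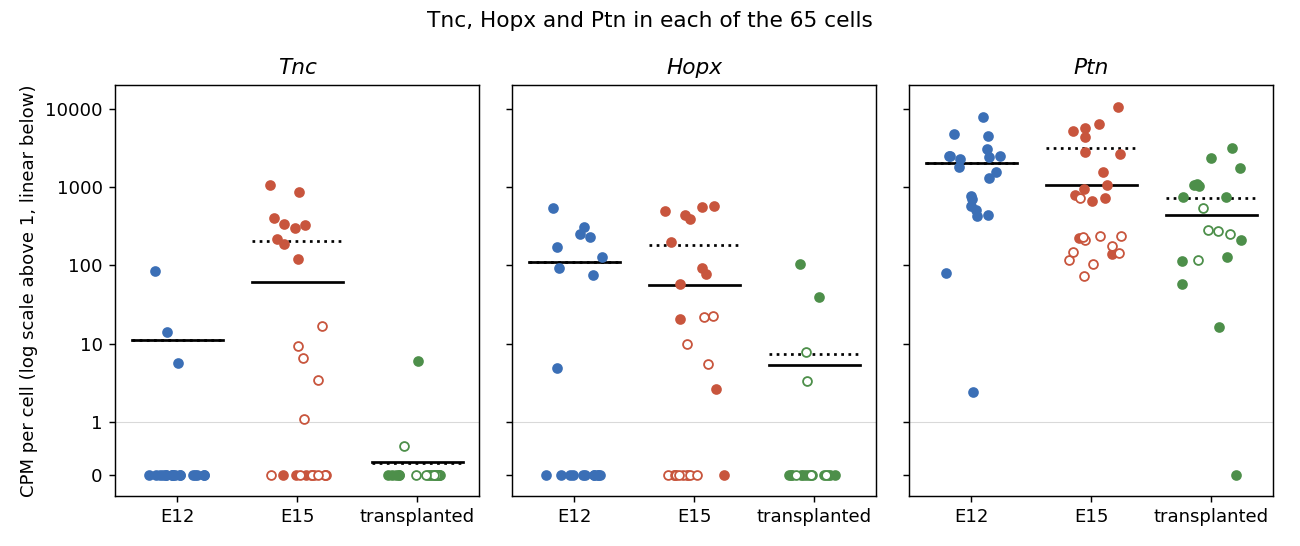
Each point is 1 cell, with Tnc, Hopx and Ptn in CPM on a vertical axis that is logarithmic above 1 and linear below, for 20 E12, 26 E15 and 19 transplanted cells. Open points are libraries with reads of more than 8000 genes, solid lines the level of a group's added reads and dotted lines the same without the open points: 9 E15 cells and no other cell reach 100 CPM of Tnc, and Ptn is read in 64 of the 65 cells.

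Read against all genes, the size of these ratios was not equally common. For transplanted over E15 cells, 11.8% of 10163 genes at 5 CPM or more in either group were lower by at least 1 on the log2 scale and 4.71% higher, and all 3 genes were among the lower ones. For E15 over E12, 25.3% of genes were higher and 20.3% lower by at least 1, and Tnc alone of the 3 passed that size. For transplanted over E12, 22.9% were higher and 24.7% lower, and all 3 genes were lower by more than 1. Without the many-gene libraries the shares higher and lower were 24.2% and 21.6% for E15 over E12, 18.7% and 28.0% for transplanted over E15, and 22.5% and 29.8% for transplanted over E12. The 3 genes kept the sides named here, except that Hopx and Ptn turned positive in E15 over E12 at sizes below 1. Since the genes were chosen with these contrasts known, nothing is read from these counts. The comparisons share groups, so they are not independent of each other.

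The 3 genes were read together mostly in E15 cells. All 3 had a read in 10 of 26 E15 cells, in 1 of 20 E12 cells and in 1 of 19 transplanted cells. Depth was not made equal for these counts, and its median was 998630 reads at E15, 148824 at E12 and 166134 in transplanted cells. In E15 replicate 15, which is counted here, Tnc was 1 read in 907616, or 1.10 CPM. In each group the count of all 3 equals that of Tnc with Hopx, since nearly every cell had Ptn. Of the 14 E15 cells with Tnc, 10 also had Hopx, and all 14 had Ptn. At E12 the usual pair was Hopx with Ptn, in 9 cells, 8 of them without Tnc. Of the transplanted cells 13 had a read of exactly 1 of the genes. Only 1 cell, transplanted replicate 8, had none of them, and it is the cell with 21203 CPM of microglia and macrophage genes.

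**Figure D2:**
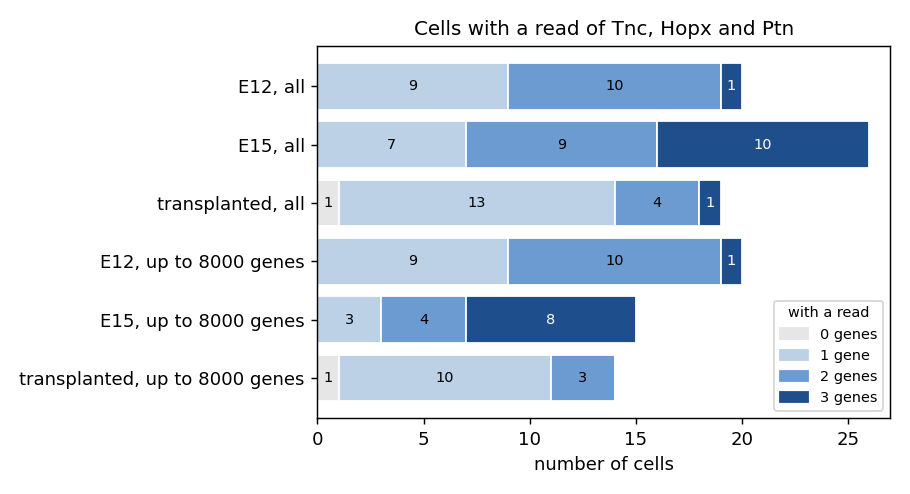
Bars count the cells of each group that had a read of 0, 1, 2 or 3 of the genes Tnc, Hopx and Ptn, over all libraries and without those with reads of more than 8000 genes. Cells with all 3 number 10 of 26 at E15, and 8 of 15 without the many-gene libraries, against 1 of 20 at E12 and 1 of 19, or 0 of 14, among transplanted cells. Depth was not made equal for these counts.

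Within pools, Tnc kept its order between transplanted and E15 cells. In each of the 7 pools that hold both groups, Tnc was lower in the transplanted cells, at log2 ratios of -6.73 to -0.44. In pool H this rested on 1 read in E15 cells and 2 in transplanted cells. Hopx was lower in 5 pools, higher in 1 and at 0 in both groups in 1, and Ptn was lower in 3 pools and higher in 4, with a mean log2 ratio of -0.14. The pooled order of Ptn thus did not hold within most pools. Without the many-gene libraries 5 pools hold both groups: Tnc was lower in 4 of them and at 0 in both groups in pool H, Hopx lower in 4 and Ptn lower in 3.

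Pool E weighed most on Tnc and Ptn in transplanted over E15 cells. It held 1433 of the 2315 Tnc reads and 23190 of the 39371 Ptn reads of E15 cells, against 1 transplanted cell with 166134 reads. Without pool E the log2 ratio of transplanted over E15 was -4.56 for Tnc and -0.13 for Ptn. Between E15 and E12, Tnc was higher at E15 in 7 of 8 pools, Hopx in 4 with 3 lower, and Ptn in 2 with 6 lower. In pools B, C and H the E15 level of Tnc was only 0.578, 4.65 and 1.09 CPM. The E12 cells of these pools had 0 Tnc reads in totals of 137873, 84454 and 10928, too few to show such levels. Between transplanted and E12 cells Tnc was at 0 in both groups in 5 of 7 pools. It was higher in transplanted cells in the other 2, pools E and H. In pool E this was 1 transplanted read against 3 E12 reads (6.02 against 1.31 CPM). In pool H it was 2 reads against 0 in 10928 E12 reads. So few reads set no order. The added reads had the opposite order, and pool F with its 53 E12 reads holds no transplanted cell. Without pool F the log2 ratio of Tnc was 5.20 for E15 over E12 and -0.51 for transplanted over E12.

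The labels also give each cell a code, IL01 to IL12, without saying what it is, and the codes are spread unevenly over the groups: 5 codes hold both E12 and E15 cells, with 1 E15 cell each, 7 hold E15 and transplanted cells, and 3 hold E12 and transplanted cells. Within the 7 codes Tnc was lower in transplanted than in E15 cells in 5 and at 0 in both groups in 2, with a mean log2 ratio of -3.83. Hopx was lower in 6 of these codes and higher in 1, and Ptn lower in 5 and higher in 2, with means of -3.20 and -0.77.

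Within codes the E15 cells were seldom above the E12 cells. Of the 5 codes Tnc was higher at E15 in 1, lower in 1 and at 0 in both groups in 3. Hopx and Ptn were each higher at E15 in 1 and lower in 4, with mean log2 ratios of -3.52 and -2.78. The higher code was IL02 for all 3 genes, and its E15 cell is replicate 2. The E15 cells of the other codes, replicates 1, 3, 4 and 5, are among the 23 cells with other markers above apical ones. Code and group can therefore be told apart only in part, and this look within codes was added after the data had been seen.

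Since apical progenitor genes differed between libraries, the 3 genes are set beside them cell by cell. The 6 E15 cells with the highest sum of the 16 apical genes, 27132 to 44511 CPM, were replicates 17, 19, 8, 13, 9 and 12, and all 6 had Tnc, at 1073, 304, 187.5, 329, 220 and 403.5 CPM. The 6 such transplanted cells, replicates 12, 19, 2, 3, 10 and 9 with sums of 9861 to 23845 CPM, all had 0 Tnc reads. The deepest of these, replicate 19 with 2584656 reads, also had 0 Hopx reads, and 3 reads in it are worth 1.16 CPM.

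Hopx was read in 5 of those 6 E15 cells, at 94.1 to 551 CPM, and in 2 of those 6 transplanted cells, at 105.5 and 40.1 CPM. The latter value is 1 read in a library of 24906. Ptn was read in all 12 cells, at 783 to 6383 CPM in the E15 cells and 58.4 to 2349 CPM in the transplanted cells. The apical sums of the 2 sets do not overlap, so these cells differ in that sum as well as in Tnc. Fabp7, Slc1a3 and Sox9 are on both the apical list and the late radial glia list used below. Without the many-gene libraries the added apical sum was 20802 CPM at E15 and 10008 at E12, with Fabp7 at 8230 and 1021 CPM. Yet 10 of the 16 genes were lower at E15, beside 4936 of 9819 genes. The sum thus does not stand for all 16 genes.

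Over all 65 cells Spearman's rho with the apical sum was 0.75 for Ptn, 0.35 for Hopx and 0.34 for Tnc, as a description over cells that share libraries' depth and makeup. Within E15 cells it was 0.85, 0.62 and 0.73, and without the many-gene libraries 0.73, 0.54 and 0.68 over 15 cells. Within E12 cells it was 0.43 for Ptn and -0.24 for Hopx, and within transplanted cells 0.50 and 0.00. Against the sum of neuronal genes, Ptn had a rho of -0.86 in E15 cells, and against that of microglia and macrophage genes -0.82. These were weaker in the other groups, at -0.06 and -0.21 in E12 cells and -0.33 and -0.435 in transplanted cells.

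**Figure D3:**
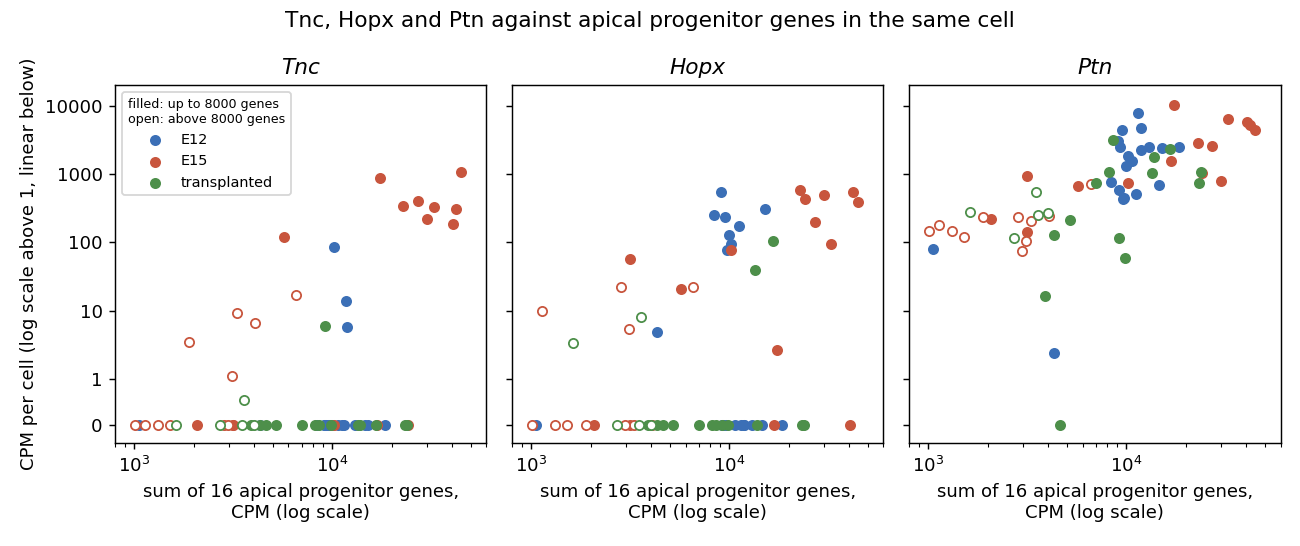
Each point is a cell, with the sum of 16 apical progenitor genes in CPM on a logarithmic horizontal axis and Tnc, Hopx or Ptn in CPM on a vertical axis that is logarithmic above 1 and linear below. Colours are the 3 groups and open points are libraries with reads of more than 8000 genes: the 6 E15 cells richest in apical genes all lie at 187.5 CPM of Tnc or more, and the 6 transplanted cells richest in them all lie at 0.

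The deposited values themselves are log10 values with the gene's mean over all cells and 2 further directions over cells taken out, so 0 is the mean of the 65 cells and a cell with no read need not have the lowest value. On this scale Tnc averaged -0.33 ± 0.27 (SD over 20 cells) at E12, 0.39 ± 0.55 (26 cells) at E15 and -0.19 ± 0.17 (19 cells) in transplanted cells. Hopx averaged -0.07 ± 0.62, 0.23 ± 0.52 and -0.23 ± 0.27, and Ptn -0.10 ± 0.53, 0.17 ± 0.24 and -0.14 ± 0.41. All 3 genes thus had their highest mean at E15, and transplanted cells had the lowest mean for Hopx and Ptn but not for Tnc. Of the variance of being an E12 cell the directions taken out held 24.2%, of being an E15 cell 8.81% and of being a transplanted cell 3.31%.

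The genes most like each member over cells were named by the highest Spearman's rho of CPM over the 65 cells, among genes with a read in at least 20 cells. For Tnc these were Clu (0.55), Sparc (0.52), Pon2 (0.52), Aldh1l1 (0.51) and Crtc3 (0.50). Clu encodes clusterin, a secreted chaperone, and Sparc a secreted matrix glycoprotein, and both were high in E15 cells and lower in transplanted cells, Clu at 168 against 33.5 CPM and Sparc at 300 against 81.6 CPM, while E12 stood at 73.5 and 283 CPM. With the many-gene libraries left out, Sparc stood at 669 and 173.5 CPM in E15 and transplanted cells, and Clu at 545 CPM at E15 with a transplanted level that was again lower. For Aldh1l1, a folate enzyme of astrocytes, E15 and transplanted cells were close, at 50.5 and 47.4 CPM, or at 160 and 126 CPM with those libraries left out. With the limit at 7000 genes, which also drops transplanted replicate 19, they stood at 72.5 and 2.92 CPM and were no longer close. On thinned reads the rho of Clu with Tnc was 0.64 and that of Sparc 0.52, while those of Pon2, Aldh1l1 and Crtc3 fell to 0.40, 0.37 and 0.37, below the 0.51 of Ptn with Tnc.

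For Hopx the nearest genes were Fdps (0.55), Myl9 (0.54), Glo1 (0.53), Mmd2 (0.51) and Msmo1 (0.49). Fdps and Msmo1 encode enzymes of sterol synthesis, and Myl9 a myosin light chain. Like Hopx, Myl9 was highest at E12, at 38.4 CPM, with 20.9 at E15 and 2.20 in transplanted cells, and Msmo1 stood at 385, 146.5 and 55.1 CPM. Leaving out the many-gene libraries gave E15 and transplanted levels of 60.5 and 0.431 CPM for Myl9 and 396 and 36.0 CPM for Msmo1, with E15 then above E12 for both. The rho of Fdps fell to 0.28 on reads thinned to 28614, so that match was weaker at equal depth.

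For Ptn they were Pax6 (0.75), Lpar1 (0.68), Aldoc (0.65), Hmgn3 (0.65) and Ttyh1 (0.63), of which Pax6 is the transcription factor that defines cortical radial glia. Pax6 stood at 1681 CPM at E12, 289 at E15 and 188 in transplanted cells, the latter pair at 742 and 320 CPM without the many-gene libraries. Between the 3 genes rho was 0.32 for Tnc with Hopx, 0.33 for Tnc with Ptn and 0.33 for Hopx with Ptn. On thinned reads these were 0.38, 0.51 and 0.34, and within the 26 E15 cells 0.48, 0.68 and 0.48.

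Of 31 other genes listed as late radial glia genes, 26 are in the tables and 25 reached 5 CPM in transplanted or E15 cells. Of these 21 were lower in transplanted cells, 13 of them by at least 1 on the log2 scale, and 4 were higher, with a median log2 ratio of -1.05 against -0.08 over all genes. Of all 10163 genes 55.6% were lower at any size, 44.4% were higher and 11.8% were lower by at least 1. Without the many-gene libraries 22 of 26 were lower, 17 by at least 1, against 54.3% and 28.0% of all genes, and the median was -1.53 against -0.13. The lists were chosen with earlier results of these cells known.

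Members of the list did not all follow Tnc. Itgb5, an integrin subunit, stood at 108.5 CPM at E15 and 10.8 in transplanted cells (28.2 and 0.647 CPM without the many-gene libraries), and Cst3, a secreted protease inhibitor of glia, at 1202 and 507 CPM. Fabp7, the brain lipid-binding protein of radial glia, stood at 2611 and 3037 CPM, an order that turned to 8230 and 6960 CPM once the many-gene libraries were left out. The glial glutamate transporter Slc1a2 was higher in transplanted cells, at 20.2 against 2.43 CPM, or 43.1 against 6.26 CPM without the many-gene libraries. Aldh1l1 was nearly level over all cells, but not with the limit at 7000 genes, at 72.5 and 2.92 CPM. Id3, an inhibitor of helix-loop-helix factors, stood at 38.2 and 22.96 CPM, but at 107 and 0.647 CPM without the many-gene libraries.

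Between E15 and E12, 16 of 26 late radial glia genes were higher at E15 and 10 lower, with a median log2 ratio of 0.54, or 1.16 without the many-gene libraries. Over all 10193 genes 49.0% were higher and the median was -0.03. Id3 stood at 38.2 against 1.21 CPM and Aldh1l1 at 50.5 against 2.02 CPM, while Sparcl1, a matrix protein related to Sparc, was at 2.43 against 73.7 CPM. These E15 levels became 107, 160 and 8.26 CPM once the many-gene libraries were left out. The E12 reads of Sparcl1 came from 4 cells. Between transplanted and E12 cells 17 of 26 were lower, with a median of -0.59 that came to 0.03 without the many-gene libraries. Of all genes 52.8% were lower in that comparison, with a median of -0.09.

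Partners of tenascin C were mostly lower in transplanted cells, with smaller ratios than Tnc. Of 10 measured integrins, proteoglycans and other partners 9 were lower in transplanted than in E15 cells, 3 of them by at least 1, with a median log2 ratio of -0.57. This stands beside 55.6% of all genes lower and 11.8% lower by at least 1. Without the many-gene libraries 8 of 10 were lower, 5 by at least 1, with a median of -1.15. Of all genes in that set 54.3% were lower and 28.0% lower by at least 1, with a median of -0.13. The 3 past that size over all cells were Itgav, Bcan and Sdc4, and each is counted on another list too. Bcan is also on the late radial glia list, and Itgav and Sdc4 are on the pleiotrophin list below. Bcan, which encodes the proteoglycan brevican, stood at 50.3 CPM at E15 and 10.4 in transplanted cells, and Itgav, an integrin subunit, at 24.7 and 4.56 CPM. Bcan came to 169 and 28.0 CPM and Itgav to 79.3 and 9.05 CPM when the many-gene libraries were dropped. Vcan, which encodes versican, was the exception at 35.2 and 51.7 CPM, or 25.9 and 64.4 CPM without those libraries. The integrin subunit Itgb1 was close in both, at 109 and 98.5 CPM, and Fn1, fibronectin, stood at 34.5 and 27.1 CPM over all cells but at 6.89 and 47.0 CPM without the many-gene libraries.

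For pleiotrophin, 12 of 12 measured family members and receptors were lower in transplanted than in E15 cells, 4 by at least 1, with a median log2 ratio of -0.68. This stands beside the same 55.6% and 11.8% of all genes. Over all cells Ncl and Nrp1 of the 12 lay at -0.05 and -0.04. Without the many-gene libraries 10 of 12 were lower, 9 by at least 1, with a median of -1.53, beside 54.3% and 28.0% of all genes. Its receptor Ptprz1, which is on 3 of the lists used here, stood at 113 CPM at E12, 234 at E15 and 143 in transplanted cells. Midkine (Mdk), the other member of its family, had the same order as Ptn over all cells, at 1460, 563 and 370 CPM. In E15 and transplanted cells outside the many-gene set, Ptprz1 stood at 624 and 202 CPM and Mdk at 1029 and 458 CPM. The heparan sulfate proteoglycan Sdc2 stood at 33.01 CPM at E15 and 3.15 in transplanted cells, or at 107 and 1.08 CPM without those libraries. Ncl, nucleolin, was close to level at 702 and 677 CPM, and its order turned to 577 and 640.5 CPM without them. Nrp1, a co-receptor, was high at E12 alone, at 174 CPM, with 25.9 at E15 and 25.2 in transplanted cells.

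Partners of Hopx lay on both sides. Of 9 measured, 6 were higher in transplanted than in E15 cells and 3, Srf, Mkl1 and Hdac1, were lower, beside 44.4% and 55.6% of all genes, and the median log2 ratio was 0.17 (0.75 without the many-gene libraries). Srf, serum response factor itself, stood at 34.8 CPM at E15 and 13.9 in transplanted cells, a log2 ratio of -1.26, and at 41.7 and 10.6 CPM without the many-gene libraries. Hdac1, a histone deacetylase, stood at 20.3 and 17.5 CPM. Srf and Hdac1 are named after their values had been seen. Another deacetylase, Hdac2, stood at 685 CPM at E15 and 691 in transplanted cells (364 and 639 CPM without the many-gene libraries), and Smad4 at 130 and 146 CPM (85.5 and 145 CPM). Of the coactivators of serum response factor, Mkl1 stood at 18.8 and 5.35 CPM (51.4 and 5.60 CPM) and Mkl2 at 5.39 and 21.5 CPM (11.9 and 46.3 CPM), with 0 reads of Mkl2 in E12 cells.

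**Figure D4:**
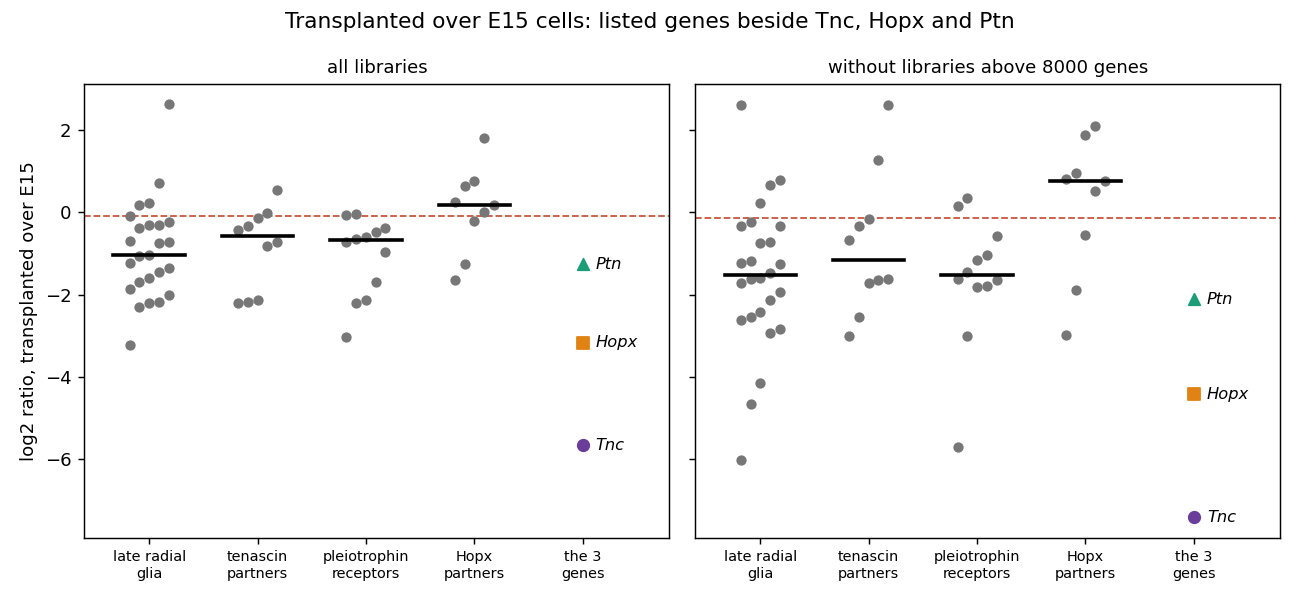
Each grey point is a listed gene at 5 CPM or more in transplanted or E15 cells, with its log2 ratio of transplanted over E15 on the vertical axis, over all libraries on the left and without those with reads of more than 8000 genes on the right. Black lines are list medians, the dashed line is the median of all genes (-0.08 and -0.13), and coloured points are Tnc, Hopx and Ptn: Tnc lies at -5.67 and -7.41, below every listed gene in both panels.

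The way of processing changed sizes more than the order of transplanted and E15 cells. In the 15 other settings tried, beside leaving out each cell or pool, the log2 ratio of transplanted over E15 was below 0 in all 15 for each of the genes, from -7.53 to -1.92 for Tnc, from -4.43 to -1.52 for Hopx and from -2.12 to -0.14 for Ptn. For E15 over E12 Tnc was above 0 in all 15, while Hopx changed sign in 7 and Ptn in 4. For transplanted over E12 Hopx and Ptn were below 0 in all 15, and Tnc changed sign in 2.

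**Figure D5:**
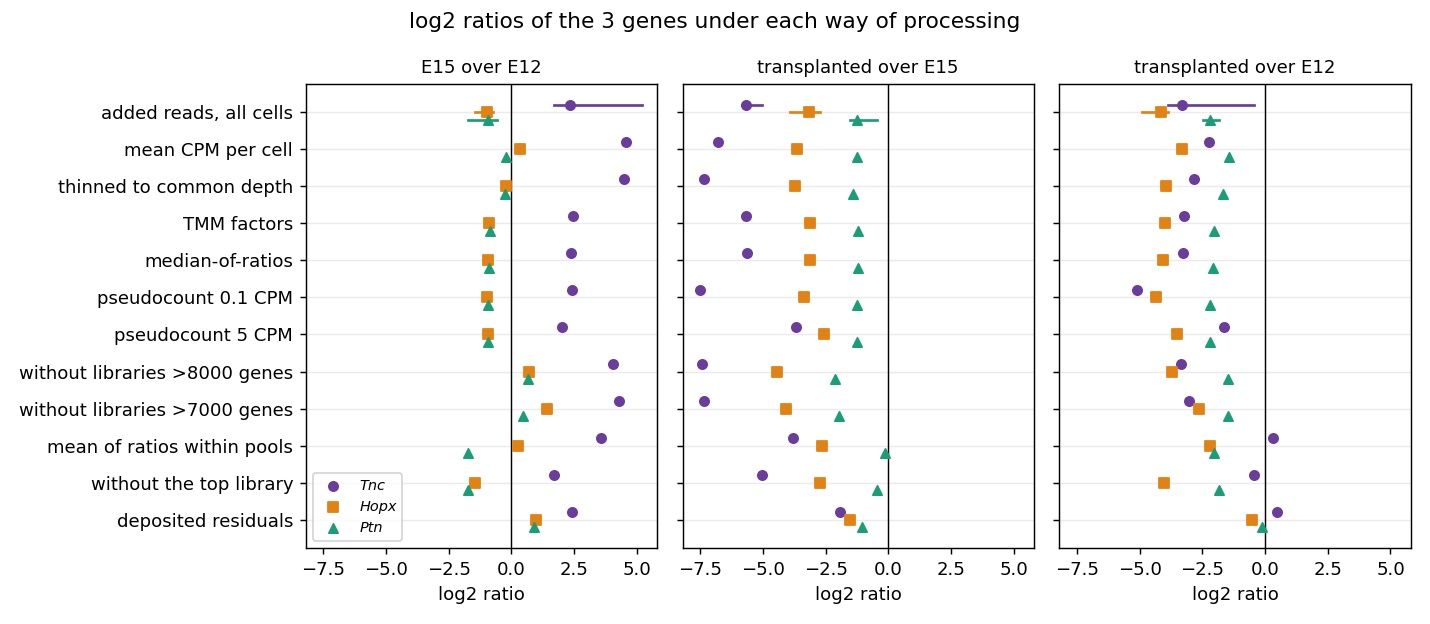
Points are log2 ratios of Tnc, Hopx and Ptn in the 3 comparisons under each of the ways of processing named on the left, and lines in the top row span the ratios with each cell left out in turn. In the middle panel every point of transplanted over E15 lies below 0, and in the left panel Hopx and Ptn lie on both sides of 0.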

How the data were processed

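Messenger RNA of 65 single cells was sequenced, 1 library per cell, with a 3′ SMART-Seq kit and Nextera XT per the labels' protocols. Per the submitters' processing notes STAR, HTSeq and the build mm10 were used, with versions not given in the sources used here. The authors deposited log10 values in 3 tables, 1 per group, and no reads or counts were used here beside them. From the values themselves, the deposited log10 values are log10 of 1 plus reads per 100000, centred per gene over 65 cells with 2 further directions over cells removed.

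The design had assumed counts, so counts were recovered. The plane of cells at 0 gave them for 9935 genes and a search for whole numbers for 472, and all 356667 nonzero values lay within 0.01 of a whole number. The tables hold genes seen in 6 or more cells. On simulated data for transplanted over E15 cells, 100.0% of 2500 genes were returned exactly.

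Counts were scaled to CPM by the sum over 10407 genes, and log2 ratios of added reads used a pseudocount of 1 CPM. Listed genes needed 5 CPM in either group. Groups came from the labels. Depth is given with the report, and intervals cover counting error. The 3 genes, the lists and the motifs were chosen with earlier results of these data known. Named genes were the 3 genes, the 5 nearest to each by Spearman's rho over cells, and, per list, at most 2 of the highest CPM overall and at most 2 of the largest ratio in each comparison. Genes named Gm with a number or ending in Rik were passed over among the nearest. Alternatives were mean CPM per cell, reads thinned to 28614 (the tenth percentile of totals), TMM and median-of-ratios factors, totals without ribosomal and mitochondrial genes, pseudocounts of 0.1 and 5 CPM, filters of 0 and 20 CPM, means within pools, the deposited values, and leaving out cells, pools, the library with most reads, or libraries above 8000 or 7000 genes. Ratios within label codes, without cells whose other markers exceed apical ones, and without many-gene libraries and the top library left were added after seeing the data. Marker lists of intermediate progenitors and of oligodendrocyte, astrocyte, endothelial, pericyte, fibroblast, erythroid, choroid plexus and Cajal-Retzius cells were also summed. The work was done in Python 3.11.15, with Matplotlib 3.10.9 for figures, SciPy 1.17.1 for intervals, Numba 0.67.0 for the search, and pandas 2.3.3 and NumPy 2.4.6.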

Additional observations from a re-analysis of the deposited data

How the results depend on the processing

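Values are log2 ratios, in the order Tnc, Hopx, Ptn unless named, and the cause of a move was not tested. For E15 over E12 they were 4.59, 0.34 and -0.20 on mean CPM per cell, 4.49, -0.23 and -0.27 on thinned reads, 4.07, 0.70 and 0.66 without libraries above 8000 genes, 4.30, 1.44 and 0.46 with a limit of 7000, 3.58, 0.28 and -1.75 as the mean within pools and 1.70, -1.44 and -1.75 without the library with most reads. TMM factors gave Ptn -0.83, and the deposited values gave Hopx 0.98 and Ptn 0.90. For transplanted over E15 they were -6.81 for Tnc and -3.64 for Hopx on mean CPM, -7.33, -3.74 and -1.40 on thinned reads, -7.41, -4.43 and -2.12 without libraries above 8000 genes, -7.35, -4.09 and -1.95 with a limit of 7000, -3.78, -2.65 and -0.14 within pools, -5.01, -2.71 and -0.44 without the top library and -1.92, -1.52 and -1.04 on the deposited values. Ptn was -1.20 with TMM and with median-of-ratios factors. For transplanted over E12 they were -2.22, -3.30 and -1.45 on mean CPM, 0.32, -2.18 and -2.03 within pools and 0.49, -0.54 and -0.14 on the deposited values. Hopx and Ptn were -3.72 and -1.46 with the limit at 8000 genes and -2.65 and -1.50 with it at 7000, Tnc and Ptn -0.46 and -1.84 without the top library, and Ptn -1.67 on thinned reads, -2.03 with TMM and -2.09 with median-of-ratios factors. With a pseudocount of 0.1 CPM Tnc was -7.53 over E15 and -5.09 over E12, and with 5 CPM -3.67 and -1.64, with Hopx at -2.57 and -3.50. Totals without ribosomal and mitochondrial genes moved none of the 9 ratios by more than the counting interval.

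Leaving out each cell gave 1.70 to 5.21, -1.44 to -0.73 and -1.75 to -0.58 for E15 over E12, -5.85 to -5.01, -3.94 to -2.71 and -1.54 to -0.44 for transplanted over E15, and -3.86 to -0.46, -4.91 to -3.87 and -2.48 to -1.84 for transplanted over E12. Leaving out each pool gave 0.38 to 5.20, -1.62 to -0.56 and -1.66 to -0.52, then -6.11 to -4.56, -3.99 to -2.19 and -1.71 to -0.13, and then -4.18 to -0.51, -4.93 to -3.81 and -2.45 to -1.79. No cell or pool left out alone changed a sign. The late radial glia median of transplanted over E12 turned to 0.03 without libraries above 8000 genes. No paired analysis was possible because replicate numbers only follow the order of accession, so the pools and codes that groups share gave within-pool and within-code values instead of a block.

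Of the settings chosen after seeing the data, leaving out libraries above 8000 genes and the top library left gave 3.72, 0.31 and -0.016 for E15 over E12, -7.06, -4.04 and -1.45 for transplanted over E15 and -0.48, -3.61 and -1.11 for transplanted over E12. Leaving out the 23 cells with other markers above apical ones gave 4.09, 0.66 and 0.67, then -7.50, -4.18 and -1.95, and -3.51 and -1.28 for Hopx and Ptn over E12. Within label codes the means were 1.36, -3.52 and -2.78 for E15 over E12, -3.83 for Tnc and -0.77 for Ptn in transplanted over E15, and -1.48 for Tnc and -2.85 for Hopx over E12.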

Other observations

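Other cell type markers were summed in the same cells, as values only. Intermediate progenitor genes (8 of 8 in the tables) had median per-cell sums of 752 CPM at E12, 787 at E15 and 1037 in transplanted cells. The 5 erythroid genes in the tables, over the added reads, stood at 2958, 2636 and 15773 CPM, or at 6283 and 43047 CPM in E15 and transplanted cells without the many-gene libraries. The medians per cell in that set were 349 and 8332 CPM. The 3 astrocyte genes in the tables stood at 69.2, 54.4 and 85.0 CPM. Single genes stood for the oligodendrocyte list (2.23, 11.1 and 12.3 CPM), the endothelial list (18.4, 2.99 and 2.75 CPM), the fibroblast list (0, 5.84 and 5.11 CPM) and the choroid plexus list (120, 13.6 and 18.7 CPM). The pericyte and Cajal-Retzius lists have no gene in the tables.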
